A study of Mus musculus with 8 samples.

Results

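Among the H3ac regions that both Gel libraries shared, 7627 had a peak in exactly 1 of the 2 CuNZ@Gel libraries, and these are the regions described here. Merging the peaks of the 4 library lists that shared at least 1 bp, over 19 autosomes, X and Y, gave 81544 regions. Members were chosen by the presence of peaks: 1 or more in each Gel library and in 1 CuNZ@Gel library, and none in the other. They made up 9.35% of all merged regions and 19.4% of the 39317 that both Gel libraries listed. Of the rest of those regions, 21909 had peaks in both CuNZ@Gel libraries and 9781 in neither. The presence of a peak in these 4 lists chose the members, so all values below describe them and carry no test.

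The cells were RAW 264.7, a mouse macrophage-like line, and the chromatin was precipitated with an antibody against acetylated histone H3 after 48 h with hydrogel extracts. The labels name 2 treatments of a study on a nanozyme hydrogel, Gel and CuNZ@Gel, with 2 precipitated libraries each, called Gel 1, Gel 2, CuNZ 1 and CuNZ 2 here. The shared protocol text mentions CuNZ@Gel extracts alone, so the handling of the Gel cells rests on their treatment label. Whether the libraries of 1 treatment were grown as separate cultures is not stated in the labels, and their spread may be technical.

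Acetyl groups on the tail of histone H3 are added by acetyltransferases such as p300 and CBP and removed by histone deacetylases. The mark is known from the promoters and enhancers of active genes, and in macrophages many enhancers gain or lose it when the cells meet an inflammatory signal. A peak list records where the signal of 1 library passed a threshold over background. No gene is named below, because the lists carry positions on GRCm39 and no genes, and the gene and promoter tables at hand are of GRCm38. No sequence is printed for the same reason.

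The libraries differed in depth, and this touches every count below. At the library background, taken as the commonest local value of its list, the fragments at a base numbered 4.62 in Gel 1, 4.28 in Gel 2, 3.45 in CuNZ 1 and 2.46 in CuNZ 2. The lists held 58612, 60483, 40075 and 34693 peaks on these chromosomes in the same order. At the library background, the weakest listed summit had 13 fragments in Gel 1, 12 in Gel 2, 11 in CuNZ 1 and 9 in CuNZ 2. The narrowest listed peak was 166, 169, 156 and 160 bp wide in the same order. The number of libraries per treatment limits the precision of every comparison between treatments.

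CuNZ 1 kept more of these regions than CuNZ 2. It alone had the peak in 5364 members, or 70.3%, and CuNZ 2 alone in 2263, or 29.7%. Members kept in CuNZ 1 were thus 2.37 times as many. The whole CuNZ 1 list held 1.16 times as many peaks as the CuNZ 2 list. These ratios are unlike measures, since both lists also hold the 21909 regions kept in both, which the first ratio leaves out. Members made up 19.7% of the regions that CuNZ 1 shared with both Gel libraries, and 9.36% of those that CuNZ 2 shared with them. CuNZ 1 was the deeper of the pair. With each peak scaled to the depth of CuNZ 2 and 1 p limit for all lists, there were 6549 members, 4545 kept in CuNZ 1 and 2004 in CuNZ 2. With all lists cut to 34693 peaks, there were 4047, of which 2556 and 1491. With only peaks scoring at or above the median of their list, there were 4118, of which 3126 and 992. The share kept in CuNZ 1 was 69.4% at equal depth, 63.2% with lists of equal length and 75.9% with the higher scores. The equal-depth setting rescales the listed summits, keeps the widths of their peaks and does not call peaks anew. It therefore cannot show what a shallower library would have listed.

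Disagreement between the Gel libraries was much rarer on the other side. Of 22791 regions that both CuNZ@Gel libraries listed, 623, or 2.73%, had a peak in 1 Gel library. Gel 1 alone had it in 340 and Gel 2 alone in 283. The 2 shares come from regions of unequal strength and from lists of unequal length, and they were not tested against each other.

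In strength, the members lay between the regions kept in neither and those kept in both, and closer to the first. Strength here is the fold enrichment at the summit over the local background of the same library, as the authors' peak caller wrote it, for the highest peak of a region. The median mean Gel fold was 3.95 for members (quartiles 3.48 and 4.60), 3.45 for regions kept in neither (3.12 and 3.86) and 7.98 for regions kept in both (5.25 and 13.8). Summits of members had a median of 21 fragments in Gel 2, where regions kept in neither had 18 and those kept in both had 43. Members kept in CuNZ 1 and in CuNZ 2 had nearly the same Gel strength, with medians of 4.01 and 3.87. The gap was 0.13. In Gel 1 the medians were 4.05 and 3.92 and the upper quartiles 4.81 and 4.54. In Gel 2 the medians were 3.97 and 3.95 and the upper quartiles 4.73 and 4.54. When Gel 1 was left out and members needed a peak in Gel 2 alone, the gap was 0.

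For a finer view, the 39317 regions were ranked by mean Gel fold and cut into 10 strength groups of nearly equal size. Members were commonest in the middle of the weaker range. In group 1, with a median fold of 2.98, 21.0% of regions were members, 72.3% were kept in neither and 6.74% in both. The share of members was 35.8% in group 4, at a median fold of 4.02, and 35.2% in group 5, at 4.50. Group 6 had 25.9% and group 7 had 10.4%. At a median fold of 8.87, group 8 had 1.78%. The 2 strongest groups held 8 members among 7863 regions. The 5 weaker groups held 80.3% of all members.

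**Figure D1:**
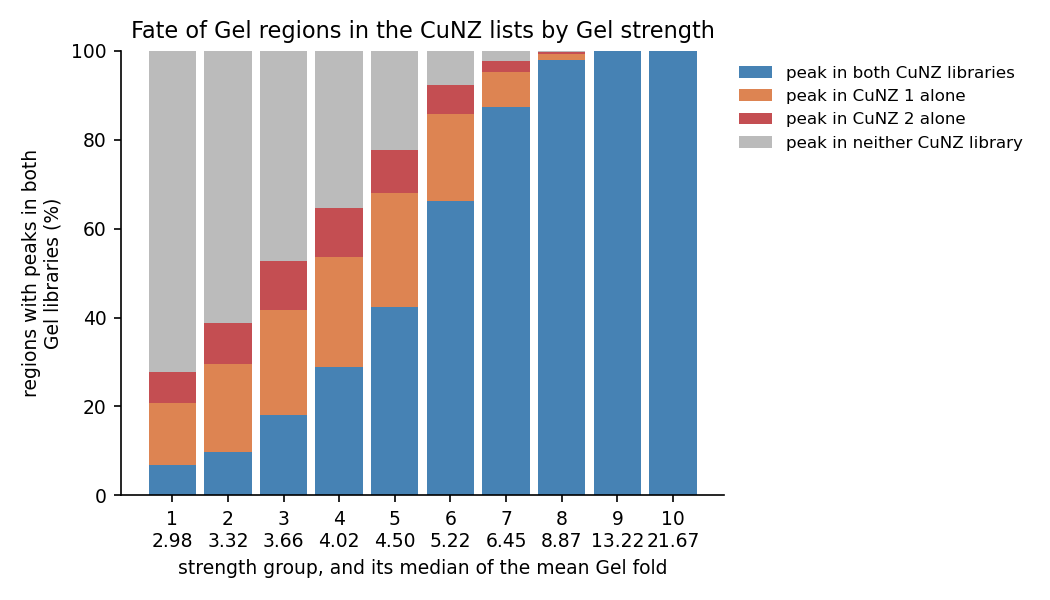
Shares of regions that both Gel libraries listed (y axis, percent) by strength group (x axis, 1 weakest to 10 strongest, with the median of the mean Gel fold); colours show in which CuNZ libraries the region had a peak. The 2 colours for a single CuNZ library together reach 35.8% in group 4 and 1.78% in group 8.

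CuNZ 1 was the commoner keeper at every strength where members were numerous. It kept 67.1% of the members of group 1, 68.8% in group 4, 72.2% in group 5 and 76.2% in group 7. Counted over all regions of a group, a CuNZ 1 peak was present in 20.8% of group 1 and a CuNZ 2 peak in 13.7%. In group 4 these shares were 53.6% and 40.1%, and in group 7 they were 95.3% and 89.8%. In group 9 both CuNZ libraries listed over 99.8% of the regions, with 99.97% in CuNZ 1 and 99.85% in CuNZ 2.

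Gel strength and Gel peak width each went with the fate of a region. For comparisons at like Gel fold, the median of each kind was taken in each of groups 1 to 7 and weighted by the number of members of the group. These groups held 7549 members, or 99.0%, and at least 20 regions of each kind. At like Gel fold, the width under Gel peaks, as the mean of the 2 Gel libraries, was 477 bp for members. It was 576 bp for regions kept in both and 397 bp for regions kept in neither. Members were thus narrower than regions kept in both, with a difference of -98.7 ± 0.214 bp (SD over the 2 Gel libraries, n = 2). They were wider than regions kept in neither by 79.7 ± 3.35 bp (SD, n = 2). These SDs compare 2 libraries over the same regions and do not measure the uncertainty of the differences. Over the settings listed at the end, the first difference ran from -91.5 to -127 bp and the second from 78.3 to 97.6 bp. The mean Gel fold left over after grouping was 4.10 for members, 4.14 for regions kept in both and 4.07 for regions kept in neither. The groups were thus close in strength but not identical.

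Within a strength group, wider Gel peaks went with more CuNZ@Gel peaks, and where members were commonest moved with width. Each group was split into 3 width classes of equal size by covered Gel width. In group 2, the share of members was 22.6% in the narrowest class, at a median of 257 bp, and 35.6% in the widest, at 528 bp. In group 6 the order was the opposite, with 35.5% in the narrowest class, at 432 bp, and 15.7% in the widest, at 1088 bp. The share kept in both went one way in both groups, from 5.57% to 15.4% in group 2 and from 49.4% to 81.9% in group 6. In group 8, the narrowest class held 4.20% members and the widest 0.153%.

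**Figure D2:**
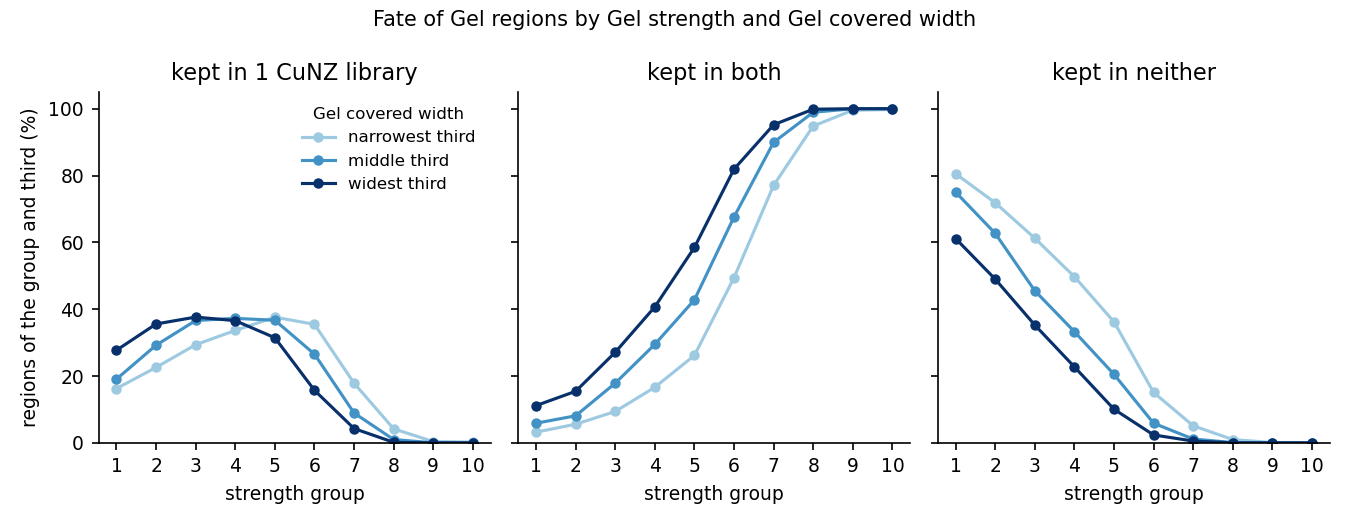
Shares of regions kept in 1, in both and in neither CuNZ library (y axes, percent) by strength group (x axes) for the 3 classes of Gel covered width (line colours, narrowest to widest). The share of members is highest in group 5 for the narrowest class (37.6%), in group 4 for the middle class (37.3%) and in group 3 for the widest (37.6%). In group 6 it is 35.5% in the narrowest and 15.7% in the widest class.

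Members kept in CuNZ 1 and members kept in CuNZ 2 differed little in what the Gel libraries show. At like Gel fold, the covered Gel width was 484 bp for the first and 459 bp for the second, a difference of 25.3 ± 2.82 bp (SD over the 2 Gel libraries, n = 2). Over 20 chromosomes the difference had an SD of 49.0 bp, and it was above 0 on 17 of them. With lists of equal length it was 11.9 bp. The distance to the nearest region kept in both was 8355 bp for members kept in CuNZ 1 and 8366 bp for those kept in CuNZ 2. The Gel summits lay 80.5 and 75.8 bp apart. The mean log2 ratio of Gel 1 over Gel 2 fold was 0.019 for members kept in CuNZ 1 and -0.005 for those kept in CuNZ 2. The difference was 0.024, with an SD of 0.039 over 20 chromosomes, and it was above 0 on 14 of them. Both SDs over chromosomes give the spread of single chromosomes and do not measure the uncertainty of the differences. The median Gel 1 fold was 4.14 for members kept in CuNZ 1 and 4.07 for those kept in CuNZ 2, higher for the first on 16 of 20 chromosomes. The median Gel 2 fold was 4.08 and 4.11, higher for the first on 5 of 20.

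The members were mostly simple peaks that all 3 listing libraries shared. The Gel 1 and Gel 2 peaks overlapped each other in 5340 of the 5364 members kept in CuNZ 1 and in 2252 of the 2263 kept in CuNZ 2. The CuNZ@Gel peak overlapped peaks of both Gel libraries in 95.1% and 93.8% of them. In the other 261 and 141 members it touched peaks of 1 Gel library, and the merging joined them. The median member was 609 bp wide, with quartiles of 462 and 818 bp, where regions kept in both had a median of 1225 bp and regions kept in neither 463 bp.

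The CuNZ@Gel peak that kept a member was weak in its own list. In CuNZ 1, members had a median of 16 summit fragments (quartiles 14 and 18) and a median fold of 3.60, and regions kept in both had 28 fragments and a fold of 6.35. In CuNZ 2, members had 12 fragments (quartiles 11 and 14) and a fold of 3.76, against 21 fragments and 6.07. The −log10 q was under 2 in 3.62% of the members kept in CuNZ 1 and in 5.70% of those kept in CuNZ 2. It was between 2 and 3 in 19.3% and 33.5%, between 3 and 5 in 41.3% and 43.7%, and 10 or more in 3.17% and 0.707%.

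At like Gel fold the same library was weaker in members than in regions kept in both. The median CuNZ 1 fold was 3.69 in members and 4.00 in regions kept in both, and the median CuNZ 2 fold was 3.80 and 4.06. The CuNZ 1 peaks covered 282 bp in members and 381 bp in regions kept in both, and the CuNZ 2 peaks 252 and 327 bp. Peaks under 200 bp, close to the narrowest listed, were also more frequent in members at like fold. They made up 23.0% against 12.7% in CuNZ 1 and 27.7% against 16.8% in CuNZ 2. A region kept in both CuNZ@Gel libraries thus also tended to have the higher value in each of them, at like Gel fold. Gel strength was not fully equal, with a mean Gel fold of 4.10 left over for members and 4.14 for regions kept in both.

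**Figure D3:**
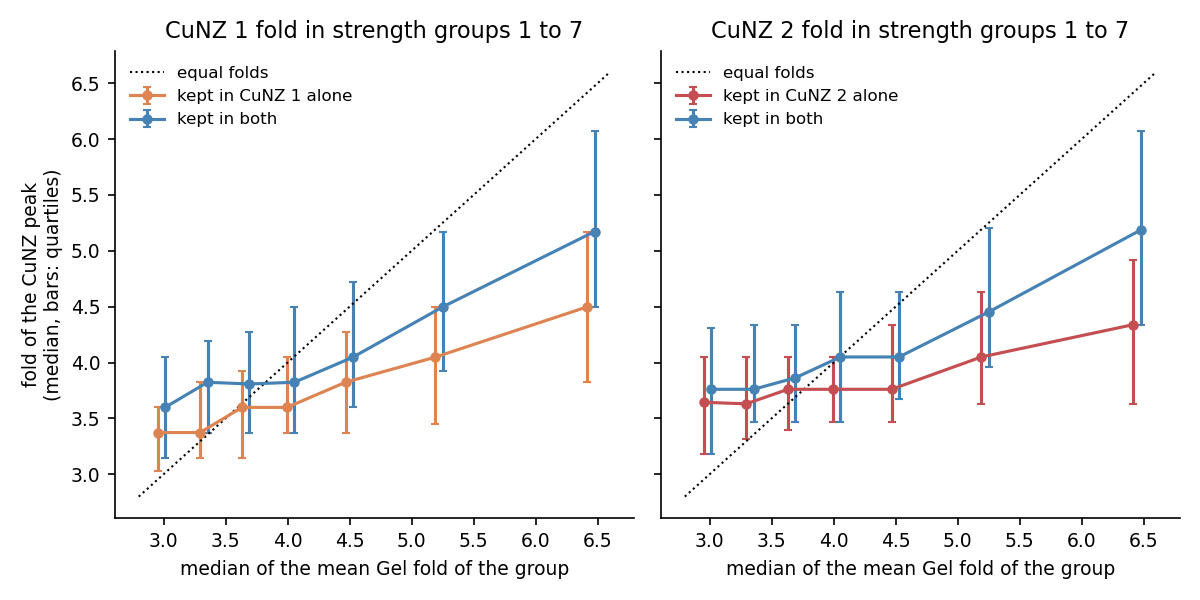
Fold of the CuNZ peak (y axis, median with quartiles as bars) against the median of the mean Gel fold in strength groups 1 to 7 (x axis), for members and for regions kept in both; the dotted line marks equal folds. In both panels the members lie at or below the regions kept in both, for example at 4.50 against 5.17 for CuNZ 1 in group 7. Both kinds take the x value of their whole group, while in group 7 their own medians were 6.21 and 6.49.

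Compared with Gel in the same region, the peak that kept a member was often not below both Gel folds. Its fold was above the mean Gel fold in 33.6% of members kept in CuNZ 1 and in 42.6% of those kept in CuNZ 2. The CuNZ 1 fold was below both Gel folds in 2592 members kept in CuNZ 1, or 48.3%, where this held for 72.5% of the regions kept in both. It was above both in 1162, or 21.7%, against 10.4%. The CuNZ 2 fold was below both Gel folds in 911 members kept in CuNZ 2, or 40.3%, against 74.2% of regions kept in both. It was above both in 641, or 28.3%, against 10.2%. The measure mattered for CuNZ 2. By summit fragments over the library background, CuNZ 2 was below both Gel libraries in 27.8% of its members and above both in 45.2%. In regions kept in both, these shares were 65.0% and 18.1%. For CuNZ 1 they were 46.5% and 24.3% in members, and 72.1% and 12.3% in regions kept in both. Regions kept in both were stronger, and at like Gel fold the order was the opposite. The CuNZ 1 fold was then below both Gel folds in 46.9% of members and 36.3% of regions kept in both, and the CuNZ 2 fold in 42.3% and 33.3%. The rule needs a listed peak, which leaves out low CuNZ@Gel values of weak regions, so these shares are not read as a gain. The shares also moved with the lists: at equal depth 46.3% of the members kept in CuNZ 1 and 26.1% of those kept in CuNZ 2 were below both Gel folds, and with lists of equal length 64.4% and 67.0%.

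The heights of the listed peaks were also set beside the weakest summits of the library without a peak. Summits of members in CuNZ 1, scaled by background to the depth of CuNZ 2, had a median of 11.4 fragments, where the weakest CuNZ 2 summit at library background had 9. For 417 of these 5364 members, or 7.77%, the scaled summit was below 9, and for 120, or 2.24%, it was at least double that. In regions kept in both, 56.7% of the scaled CuNZ 1 summits were at least double. In the opposite direction, the members' CuNZ 2 summits, scaled up to CuNZ 1, had a median of 16.8 fragments against a weakest listed summit of 11. None of the 2263 was below 11, since scaling up lifts the weakest of them past it, and 271, or 12.0%, were at least double. Regions kept in both had 71.9% at least double. Those regions were stronger in Gel, and at like Gel fold the unscaled fragments were closer: 15.9 in members and 17.6 in regions kept in both for CuNZ 1, and 12.4 and 13.7 for CuNZ 2. The part of counting error and of depth in the missing peaks was not tested.

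A peak of the other CuNZ@Gel library was seldom close by. The median distance from a member kept in CuNZ 1 to the nearest CuNZ 2 peak was 6112 bp, and 722, or 13.5%, had one within 500 bp. For members kept in CuNZ 2, the nearest CuNZ 1 peak was at a median of 5091 bp, and 331, or 14.6%, had one within 500 bp. Regions kept in neither had medians of 4756 bp to CuNZ 1 and 5850 bp to CuNZ 2. At like Gel fold, 24.5% of members lay within 2000 bp of a region kept in both. This share was 26.2% for regions kept in both and 25.3% for regions kept in neither, so nearness to a kept region set the members apart little.

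The strongest members were few, and several were narrow. The member with the highest mean Gel fold among those kept in CuNZ 1 lay on chromosome 1 from 171316380 to 171316640, 261 bp in all. Its summit had 117 fragments in Gel 1, 113 in Gel 2 and 38 in CuNZ 1, and the folds were 21.0, 20.7 and 8.50. The 2 Gel values were close together and the CuNZ 1 value was far below both. The CuNZ 1 peak was 159 bp wide, where the narrowest of that list was 156 bp. The second lay close before it, from 171314391 to 171314602, with 113, 95 and 56 fragments and folds of 20.3, 18.2 and 12.8. Its peaks were 212, 186 and 196 bp wide. The strongest member kept in CuNZ 2 had the same form: 185 bp on chromosome 5 from 23912039 to 23912223, with 122 fragments in Gel 1, 102 in Gel 2 and 32 in CuNZ 2, at folds of 21.9, 19.5 and 9.55. Its CuNZ 2 peak was 169 bp wide, against a narrowest of 160 bp in that list. Scaled to the library without a peak, the kept summits of these 3 members had 27.1, 39.9 and 44.9 fragments, well over the weakest listed summits of 9 and 11. For these members the height was thus not close to the limit, while 2 of the 3 kept peaks were within 10 bp of the narrowest width. Whether a minimum width of the caller removed the other peak was not tested.

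The other strong members differed in width and background. On chromosome 1 from 191553624 to 191554287, the summit had 77 and 82 fragments in Gel 1 and Gel 2 and 18 in CuNZ 1, with folds of 13.9, 15.7 and 4.27. On chromosome 14 from 30672708 to 30673225, it had 63 and 60 in Gel and 17 in CuNZ 1. Before any scaling for depth, both regions had more than 3 times as many fragments in each Gel library as in CuNZ 1. On chromosome 8 from 124160672 to 124161134, the 141 and 166 Gel fragments and 66 CuNZ 1 fragments stood on a local background 2.53, 2.52 and 2.71 times that of the library. Among members kept in CuNZ 2, the next in strength lay on chromosome 12 from 54822859 to 54823184, with 64 and 49 Gel and 19 CuNZ 2 fragments. It was followed by chromosome 9 from 21202890 to 21203468, with 52 and 50 Gel and 13 CuNZ 2 fragments, chromosome 9 from 41818198 to 41818414, with 44, 54 and 19 at a width of 217 bp, and chromosome 10 from 81186510 to 81187414, with 49, 49 and 24. These 10 were chosen for a high Gel fold and their fragments are not scaled for depth, so the lower CuNZ@Gel values are not read as a difference.

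**Figure D4:**
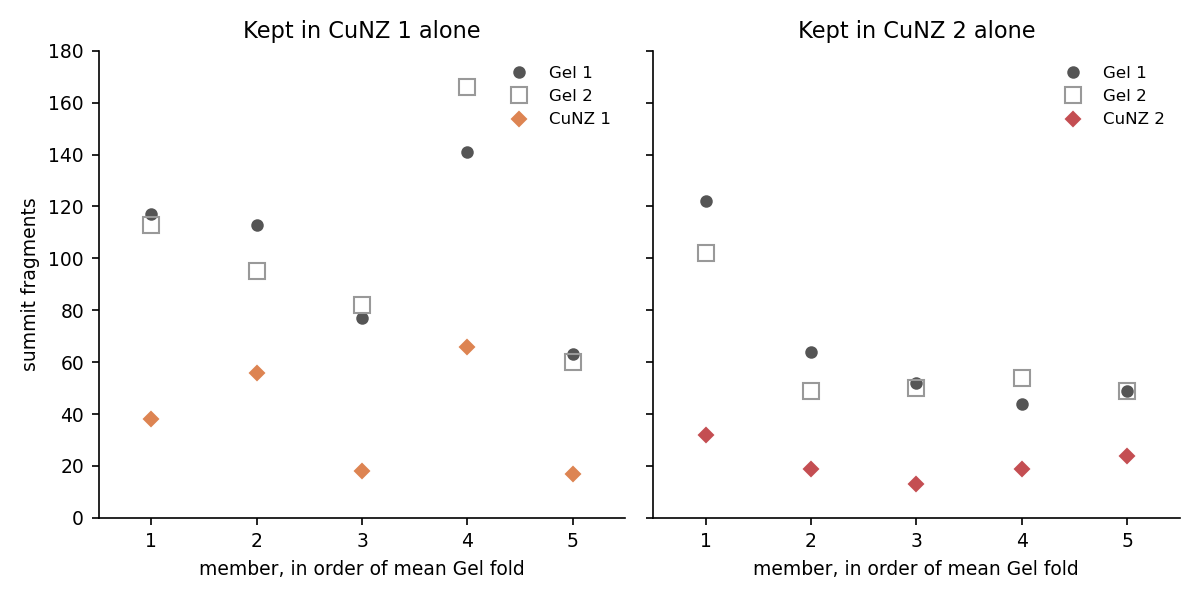
Summit fragments (y axis, not scaled for depth) of the 5 members with the highest mean Gel fold among those kept in CuNZ 1 (left) and in CuNZ 2 (right), in order of that fold (x axis), 1 point per library that lists the region. The CuNZ points, from 13 to 66 fragments, lie below both Gel points of the same member.

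Narrowness was more common among strong members than among strong regions kept in both. In groups 8 to 10, the 78 members had a median width of 611 bp and 29 of them, or 37.2%, were under 500 bp. The 11702 regions kept in both had a median of 1720 bp and 1.78% under 500 bp. Of the 78 members, 70 were in group 8, while regions kept in both were spread over the 3 groups. Within group 8 the median width was 720 bp for the 52 members kept in CuNZ 1 and 1265 bp for regions kept in both. In groups 1 to 7, members had a median of 609 bp and 31.5% under 500 bp. A local Gel background over 1.5 times that of the library was found in 3 of the 78, or 3.85%, and in 1.44% of the weaker members.

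Some members were as strong in the CuNZ@Gel library that listed them as in Gel. The highest CuNZ 1 fold of a member was 18.3, on chromosome 1 from 93217281 to 93217896, where the Gel folds were 9.35 and 12.9. Its summits had 210 and 191 fragments in Gel and 155 in CuNZ 1, which were 45.5, 44.6 and 44.9 times the library background and so nearly level, on a local background 4.67, 3.26 and 2.18 times that of the library. On chromosome 12 from 110788406 to 110789378, the folds were 5.16 and 7.76 in Gel and 8.32 in CuNZ 1, with 28, 40 and 36 fragments at the library background. The CuNZ 1 peak there covered 310 bp and the Gel peaks 759 and 973 bp. On chromosome X from 7765278 to 7766271, the folds were 7.12, 8.14 and 8.10, and the CuNZ 1 peak covered 176 bp against 783 and 953 bp in Gel. In CuNZ 2, the member on chromosome 5 from 104075509 to 104076112 had a fold of 8.76 and 30 fragments, against 6.95 and 6.63, and 38 and 36 fragments, in Gel. In these 4 the CuNZ@Gel fold was above that of at least 1 Gel library, and the peak was narrower than in both. Not all members chosen by this rule were alike. On chromosome 8 from 69246128 to 69246399, the CuNZ 2 fold of 6.65 was above the Gel folds of 5.70 and 6.24, and its 256 bp were wider than the 226 and 254 bp in Gel. The region on chromosome 10 named above was also among them, with a CuNZ 2 fold of 7.23 below both Gel folds, 8.90 and 9.46. The highest CuNZ 2 fold of a member, 9.55 on chromosome 5 from 23912039, lay far below the Gel folds of 21.9 and 19.5. Far below Gel were also the CuNZ 1 folds on chromosome 1 from 171314391, 12.8 against 20.3 and 18.2, and from 171316380, 8.50 against 21.0 and 20.7. On chromosome 9 from 98867886, the CuNZ 2 fold of 6.94 was above the Gel folds of 5.01 and 5.21.

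The members with the widest CuNZ@Gel coverage ranged from well below Gel in width to above it. On chromosome 12 from 112558495 to 112560999, peaks covered 2408 bp in Gel 1, 2200 bp in Gel 2 and 1653 bp in CuNZ 1, with folds of 5.32, 5.11 and 5.40. On chromosome 10 from 42507947 to 42509774, they covered 1636, 1828 and 1596 bp. On chromosome 9 from 81511647 to 81513401, Gel 1 had 1703 bp, Gel 2 had 1539 bp and CuNZ 1 had 1535 bp. The CuNZ 1 width lay below both Gel widths in these 3. Among members kept in CuNZ 2, the widest lay on chromosome 1 from 78165311 to 78166611, with 1131 and 1175 bp in Gel and 1151 bp in CuNZ 2. On chromosome 15 from 84859850 to 84861160, CuNZ 2 covered 997 bp and Gel 831 and 811 bp, and on chromosome 5 from 138743903 to 138745396 it covered 971 bp against 430 and 557 bp. Others by the same rule were far narrower than in Gel, such as chromosome 6 from 113310318 to 113313069, with 2579 and 2356 bp in Gel and 1261 bp in CuNZ 1. On chromosome 2 from 167171313 to 167174468, Gel had 2077 and 2593 bp and CuNZ 2 had 957 bp. The regions on chromosomes 15 and 5 were wider in CuNZ 2 than in both Gel libraries, a state found in 155 members kept in CuNZ 2, or 6.85%. In CuNZ 1 it was found in 442, or 8.24%. Narrower than both Gel libraries were 72.0% of the members kept in CuNZ 1 and 73.9% of those kept in CuNZ 2. In regions kept in both, CuNZ 1 was narrower than both Gel libraries in 80.2% and wider in 6.13%. CuNZ 2 was narrower in 87.5% and wider in 3.38%. At like Gel fold, narrower peaks made up 71.4% in members and 66.6% in regions kept in both for CuNZ 1. For CuNZ 2 these shares were 74.7% and 74.6%.

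A few members had a far higher fold in CuNZ@Gel than in Gel, and they were chosen after these values were seen. On chromosome 13 from 13554616 to 13555394, the folds were 3.21 in Gel 1, 3.41 in Gel 2 and 6.75 in CuNZ 1, with 17, 17 and 29 fragments. Peaks covered 345 and 532 bp in Gel and 763 bp in CuNZ 1. CuNZ 1 was thus the highest and widest of the 3 libraries although it was shallower than both Gel libraries, and CuNZ 2 listed no peak. Among members kept in CuNZ 1, the highest keeping fold relative to Gel lay on chromosome 1 from 176653350 to 176653862. The folds there were 2.56 and 3.78 in Gel and 6.52 in CuNZ 1. That CuNZ 1 peak covered 344 bp, between 209 bp in Gel 1 and 513 bp in Gel 2. A keeping fold at least 1.5 times the mean Gel fold was found in 51 of 5364 members kept in CuNZ 1. For CuNZ 2 it was found in 39 of 2263. The like count for regions kept in both is not given here. One further member stood apart by its background, also chosen after its values were seen. On chromosome 9 from 124020002 to 124020471, the summit had 467, 387 and 346 fragments in Gel 1, Gel 2 and CuNZ 1. The local background there was 77.5, 70.2 and 71.1 times that of the library, and the folds were 1.30, 1.29 and 1.41.

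At the other end lay the members just inside the rule. The lowest −log10 q of a CuNZ@Gel peak that kept a member was 1.35. It belonged to a region on chromosome 19 from 32468558 to 32468780 with 11 CuNZ 1 fragments, where Gel 1 had 22 and Gel 2 had 17. The next lay on chromosome 1 from 165532436 to 165533314 and on chromosome 3 from 107786335 to 107786878, each with 12 CuNZ 2 fragments. The Gel fragments were 23 and 22 in the first and 17 and 17 in the second. Values just outside the rule are those of peaks that no list holds, so they are not analysed here.

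Members were spread over all 19 autosomes and X. Per chromosome they made up 19.2% ± 1.49 (SD, 20 chromosomes) of what both Gel libraries listed. With 1 Gel library left out and members defined by the other, this SD was 0.920 without Gel 1 and 0.922 without Gel 2. The share was highest on chromosome 9, with 419 of 1994 regions or 21.0%, and lowest on X, with 85 of 567 or 15.0%. On X the mix of Gel strengths alone gave 16.3%, and on chromosome 9 it gave 19.5%. Chromosome 17 had 17.2%, where strength alone gave 19.3%. The share of members kept in CuNZ 1 was 70.6% ± 2.31 (SD, 20 chromosomes), from 66.3% on chromosome 11 to 75.3% on X. CuNZ 1 was thus the commoner keeper on each of the 20. Chromosome Y had 4 regions with peaks in both Gel libraries and no member.

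**Figure D5:**
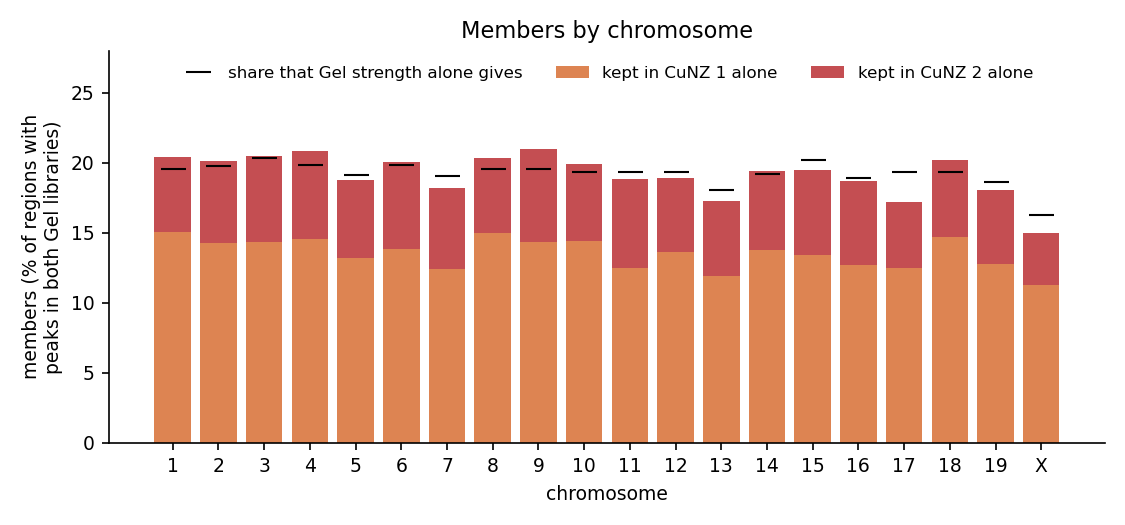
Members as a percentage of regions that both Gel libraries listed (y axis) by chromosome (x axis), split by the CuNZ library that has the peak; dashes mark the share that the strength groups of each chromosome alone give. The bars range from 15.0% on X to 21.0% on chromosome 9.

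Neighbouring regions hardly shared their fate by library. After a member kept in CuNZ 1, the next region with peaks in both Gel libraries along the chromosome was kept in CuNZ 1 alone in 14.6% of 5362 cases and in CuNZ 2 alone in 5.46%. After a member kept in CuNZ 2 these shares were 14.8% and 6.59% of 2262 cases. After a region kept in both they were 13.3% and 5.73%. Of 1561 pairs of members that followed each other, 934, or 59.8%, had the same keeper, where the 2 keeper shares alone give 58.3%. Within 2000 bp it was 183 of 309 pairs, or 59.2%. Within 10000 bp it was 482 of 800 pairs, or 60.25%. The share with the same keeper was thus much alike in close pairs and in all pairs.

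Most members stood alone. With members chained wherever they lay within 10000 bp of each other, 5530, or 72.5%, had no other member in reach, and 1532 lay in pairs. Members were only 19.4% of the regions that both Gel libraries listed. The like share for other kinds of region is not given here, so standing alone is not read as a trait of members. Chains of 5 or more numbered 12 and are named after their counts were seen. The largest had 8 members on chromosome 3 from 108298675 to 108319167, of which CuNZ 1 kept 6 and CuNZ 2 kept 2, with mean Gel folds from 3.38 to 4.93. The next had 6 on chromosome 7 from 132377768 to 132408275, with 2 kept in CuNZ 1 and 4 in CuNZ 2. CuNZ 1 kept 70.3% of all members, and in 3 of the chains of 5 it kept every member. These lay on chromosome 11 from 70473709 to 70487875 and from 80367950 to 80387473, and on chromosome 1 from 169747026 to 169768564. In 1, on chromosome 9 from 21036277 to 21058158, all 5 were kept in CuNZ 2. In each of these 12 chains, at most 1 region kept in both CuNZ@Gel libraries lay within the span. No such count is given for other spans of like length, so it is not read as a trait of the chains.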

How the data were processed

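The 4 H3ac libraries of RAW 264.7 cells were used, and the 4 input libraries were not analysed here. Tools named in the submitters' processing notes are fastp, SAMtools 1.17, MACS2 2.2.8 and deepTools 3.5.6, with the build GRCm39. For the aligner and the settings of the peak caller, the entry is: not given in the sources used here. Each library has its own peak list. The deposited lists give for each peak a score, a fold enrichment ratio, a −log10 p, a −log10 q and the position of the summit. The 2 deposited lists per treatment were not used.

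Summit fragments and local background were solved from fold and p (relative tolerance 0.0001), with a pseudocount of 1 in the fold, for 100% of peaks. The solution was tested on simulated data. The library background is the commonest solved value. Python 3.11.15, numpy 2.4.6, pandas 2.3.3 and scipy 1.17.1 were used. No count model and no test was applied.

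The members, the lists and the rules were chosen with earlier results of these data known. The width classes, the scaling of summits to the other library, the counts of peaks under 200 bp, the widths of strong members and the chains of members were added after values of these data were seen. Regions are named by position: 5 per CuNZ library with the highest mean Gel fold, highest fold in the keeping library and widest coverage there, of which a part is printed, and 3 with the lowest −log10 q. Coordinates are 1-based. The planned gene lists, promoter overlaps, base composition and sequences need a GRCm39 annotation or genome and were left out.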

Additional observations from a re-analysis of the deposited data

Results flagged for a closer look

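Peaks on unplaced scaffolds entered no comparison. The same rule applied there gave 11 regions that both Gel libraries and 1 CuNZ library listed, 8 in CuNZ 1 and 3 in CuNZ 2, among 83 listed in both Gel libraries. These are values alone, with no control level beside them and no test. Groups of 2 libraries were too small to look for a library that stands apart.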

How the results depend on the processing

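For counts of members, their share in CuNZ 1 and their Gel fold, all settings were planned. For covered Gel width at like Gel fold, only the q-value, equal depth and the 3 ways of grouping by strength were planned. The other settings for width, the use of differences of width, and all settings for the shares below both Gel folds and for the spread over chromosomes were chosen after seeing the data. A count was taken as moved past 1.5 times its value, and another result past 1 SD between the Gel libraries, past its binomial interval or, for the SD over chromosomes, past 10% of itself. By that measure 89 of 153 values moved. A reversal was defined as a change of sign, which only the differences could show, since all other values are positive. No difference changed sign, and the gap in Gel fold was 0 without Gel 1. The binomial interval counts each member as an independent trial, which regions of 1 library are not. It serves here only as a yardstick for calling a share moved, not as a measure of its uncertainty. In every setting run CuNZ 1 kept more members than CuNZ 2, and members were narrower in Gel than regions kept in both and wider than those kept in neither.

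Widths are given in bp for members, kept in both and kept in neither, then as members minus both, members minus neither, and CuNZ 1 minus CuNZ 2. At scores at or above the list median there were 4118 members, 3126 in CuNZ 1 (75.9%) and 992 in CuNZ 2, with a fold of 5.57, a gap of 0.22, widths of 722, 831 and 638, differences of -109, 84.4 and 21.1, and 36.4% below both Gel folds in CuNZ 2. Lists of equal length gave 4047, 2556 (63.2%) and 1491, a fold of 4.58, widths of 549, 676 and 457, differences of -127, 91.7 and 11.9, and 64.4% and 67.0% below both in CuNZ 1 and CuNZ 2. Equal depth gave a fold of 3.75, widths of 496, 604 and 413, differences of -108, 83.5 and 30.6, and 46.3% and 26.1%. A q-value of at most 0.01 gave 4.03, widths of 485, 586 and 406, and -102 and 30.7 for the first and last difference. Local background at most 1.5 times gave 4.04, widths of 486, 579 and 403, differences of -92.6, 83.3 and 22.2, shares of 50.7% and 43.5%, and an SD over chromosomes of 1.97. An overlap of 100 bp gave 4.01, widths of 481, 579 and 402, and -97.7 for the first difference. Joined gaps of up to 200 bp gave 481 and 585, and -104. Summit height as strength gave 569 for kept in both and -91.5, the lower Gel fold 586, 391, -111 and 84.7, and 20 strength groups 572 and -95.1.

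Without 1 Gel library, there were 9746 to 9820 members, the share kept in CuNZ 1 was 68.9% to 69.1%, the fold 3.75 to 3.78, the gap 0 (without Gel 1) to 0.17, the widths 426 to 435, 543 to 551 and 328 to 340, and the differences -117 to -116, 95.1 to 97.6 and 17.6 to 23.1. The shares below the Gel fold, then of 1 library by construction, were 59.2% to 60.3% and 50.4% in both runs, and the SD over chromosomes 0.920 to 0.922. The other causes were not tested.

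Leaving out a CuNZ library was not possible, since the rule needs both. No paired analysis was possible because no result comes from a test. Depth limits what a missing peak shows: signal below the limit of a list is not recorded in it.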
